A study of Mus musculus with 18 samples.

Results

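Interferon-stimulated genes were examined in the bulk RNA-seq of synovial macrophages, as 47 gene symbols read from the count table of each library. The 47 were split by function into an antiviral group of 41 genes, typical targets of type I interferon, and a guanylate-binding group of 6 large GTPases and immunity-related GTPases, typical targets of interferon gamma. All 47 were among the 24421 symbols of the files, and 46 passed the filter on low counts that kept 10550 genes for testing. Ifi44 did not pass and was not tested, so every count below is over 46 members, 40 antiviral and 6 guanylate-binding.

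The macrophages came from the synovium, the lining tissue of the joint, of adult wild-type C57BL/6 mice of both sexes (on a C57BL/6J background by the study's methods). They were sorted into LYVE1+CX3CR1+, MHCII+CD11c- and MHCII+CD11c+ subsets, and each library held cells from the pooled legs of several mice. For each subset, 3 libraries came from untreated mice and 3 from mice killed 8 h after an intravenous injection of immune complexes (IC) made of fluorescent ovalbumin and rabbit anti-ovalbumin antiserum, 18 libraries in all. No sample with a vehicle or antibody-alone injection was analysed here, so IC and the injection itself cannot be told apart. The design asked how the subsets differ and how each of them responds to circulating IC.

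Type I interferons bind IFNAR1 and IFNAR2, which act through JAK1 and TYK2 to form a complex, with STAT2 and IRF9 among its subunits, that binds interferon-stimulated response elements (ISREs) in promoters. Interferon gamma binds IFNGR1 and IFNGR2 and acts through JAK1 and JAK2 to bring about binding at gamma-activated sites (GAS). The products of the target genes block viral entry, degrade viral RNA, sense foreign nucleic acid, modify proteins with ISG15 or attack the vacuoles of intracellular pathogens. Macrophages express many of these genes at rest through tonic interferon signalling, and IRF7 amplifies further interferon production.

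Promoter sequences are shown for 6 members as examples of the element typical of the family, 4 from the antiviral and 2 from the guanylate-binding group. Rsad2, Isg15, Oas1a and Gbp3 are among the genes called with IC, and Ifit1 and Gbp2 are shown as members of their families that were not. The RefSeq promoter table (GRCm38.p6, from 250 bases before to 50 bases after the start) held 36 of the 47 members. The letters of the ISRE core, GAAANNGAAA on either strand, were found in 21 of these 36 promoters (58.3%), against 1079 of the 27025 genes in the table (3.99%). They were found in 16 of 31 antiviral promoters and in 5 of 5 guanylate-binding promoters. The GAS core, TTCNNNGAA, which reads the same on both strands, was found in 10 of 36 members (27.8%) and in 9.55% of all genes. It was found in 8 of 31 antiviral and 2 of 5 guanylate-binding promoters. The 2 motifs share GAA and TTC letters and can overlap. In the stretches below, capitals mark the ISRE core and each stretch is written 5′ to 3′ on the strand of the gene. A match describes the letters in this window and is not evidence of binding.
Rsad2, chr12:26456538-26456597, minus strand: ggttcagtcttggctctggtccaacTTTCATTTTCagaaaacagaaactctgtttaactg
Isg15, chr4:156200850-156200921, minus strand: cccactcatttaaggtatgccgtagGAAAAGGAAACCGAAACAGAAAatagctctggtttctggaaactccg
Oas1a, chr5:120907526-120907570, minus strand: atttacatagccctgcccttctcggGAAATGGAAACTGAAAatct
Ifit1, chr19:34640760-34640838, plus strand: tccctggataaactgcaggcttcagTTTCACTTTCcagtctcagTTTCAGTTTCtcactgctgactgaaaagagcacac
Gbp2, chr3:142620579-142620638, plus strand: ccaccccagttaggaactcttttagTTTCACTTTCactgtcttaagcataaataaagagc
Gbp3, chr3:142559974-142560039, plus strand: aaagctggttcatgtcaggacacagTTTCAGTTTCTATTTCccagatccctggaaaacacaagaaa
The 6 stretches were cut around matches of the core, so all of them hold it by choice, and Isg15 holds 3 overlapping copies of it. Among members called with IC, Irf7, Oasl2 and Cmpk2 had a promoter in the table without the core. Dhx58, Zbp1, Oas2, Mx1, Mx2, Rtp4, Tor3a, Usp18, Parp9, Parp14 and Iigp1 had no entry.

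Total counts per library ran from 245903 to 2172358 (median 1526179). The shallowest group was MHCII+CD11c- after IC, with totals of 245903, 381217 and 973951, and the calls that were lost without its 2 shallow libraries are named below. The first untreated LYVE1+CX3CR1+ library was low for many members, with a mean log2 CPM over the members of 4.46 against 5.15 and 4.96 in the other 2, and the counts without it are given below. The sort genes followed the labels. The summed level of H2-Ab1, H2-Aa and Cd74 was 32.6 to 53.3 CPM in untreated LYVE1+CX3CR1+ libraries and 16680 to 27610 CPM in the untreated MHCII+ ones, and Itgax, which encodes CD11c, was at 240.0 to 303.7 CPM in untreated CD11c+ and 2.33 to 13.3 CPM in untreated CD11c- libraries. After IC, the class II sum was lower in MHCII+CD11c- libraries, at 5855 to 11740 CPM, and Itgax was higher there, at 31.0 to 70.6 CPM. The summed level of Lyve1, Cx3cr1, Vsig4, Timd4 and Folr2 in CD11c+ libraries was 803 to 897 CPM untreated and 1422 to 1782 CPM after IC. There Lyve1 (1.54 ± 0.28, adjusted p = 0.00881), Cx3cr1 (0.85 ± 0.20, adjusted p = 0.0471) and Vsig4 (1.17 ± 0.24, adjusted p = 0.0145) rose. Timd4 (0.23 ± 0.33) and Folr2 (-0.25 ± 0.17) were not called. In CD11c- libraries the sum was 1708 to 1924 CPM untreated and 1506 to 3729 CPM after IC. None of the 5 was called there, with values from -0.16 (Folr2) to 0.97 (Lyve1, adjusted p = 0.0831) and Vsig4 at 0.84 (adjusted p = 0.0614). The summed level of 9 neutrophil markers moved with both subset and treatment and is given beside the results. Levels are TMM-normalised CPM (counts scaled to a common library size), differences are log2 fold changes with SE, and a call means an adjusted p under 0.05 in edgeR's quasi-likelihood test over all 10550 genes. The labels do not say how the pools of mice relate between libraries, so p-values measure the spread between these libraries.

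**Figure D1:**
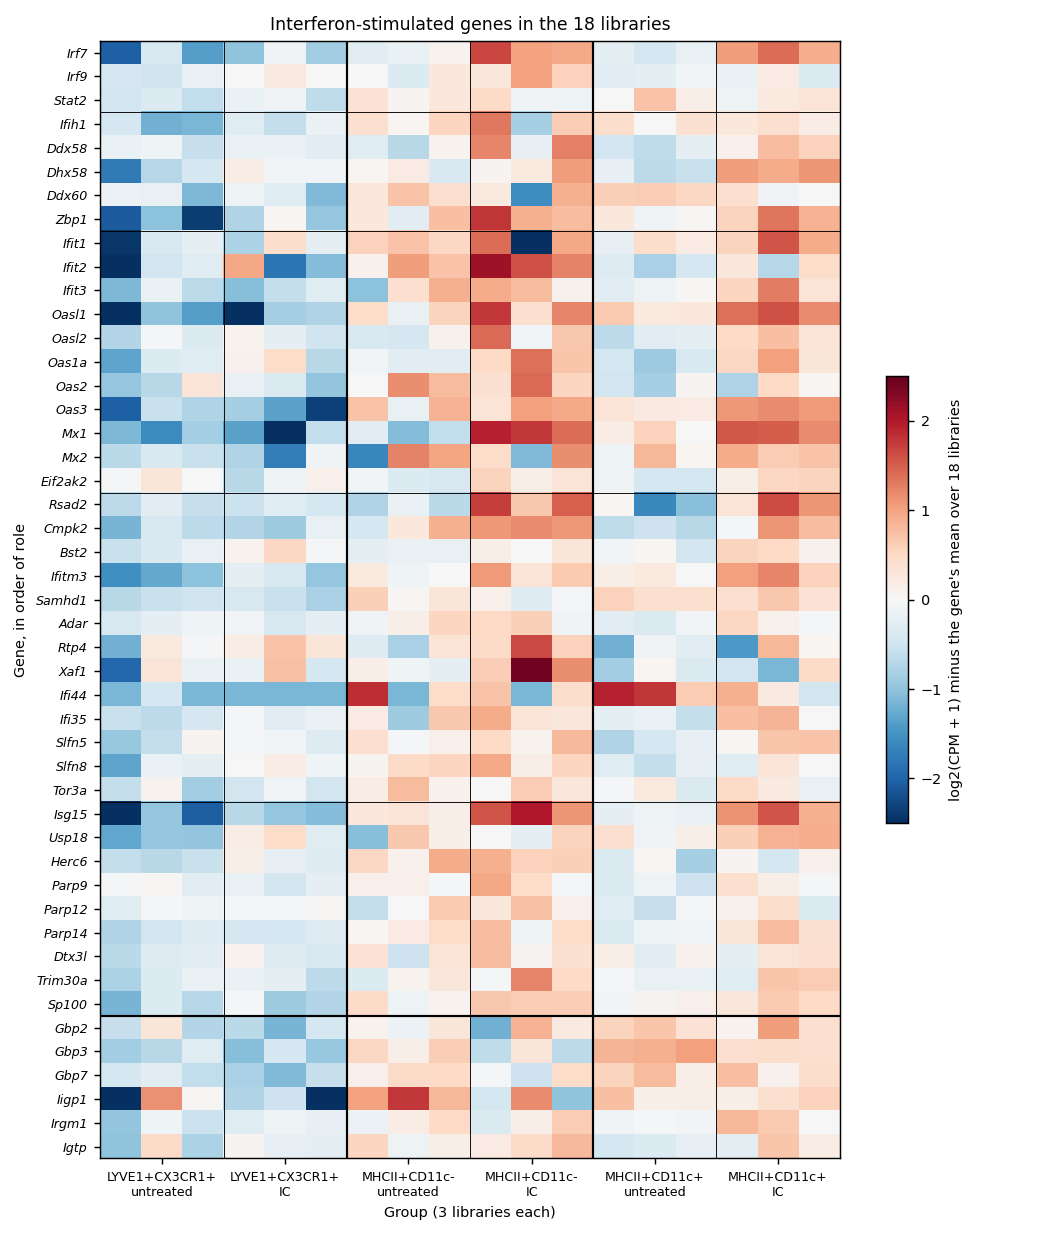
Level of the 47 members in the 18 libraries, as log2(CPM + 1) minus each gene's mean over the 18 libraries. Rows are genes in order of role, with the 6 guanylate-binding genes below the heavy line, and columns are libraries grouped by subset and treatment. Most antiviral rows are blue in the 6 LYVE1+CX3CR1+ libraries and red in the 6 MHCII+ libraries after IC.

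Per length of exon, the most abundant member was Ifitm3, which encodes a membrane protein that blocks the fusion of viruses with endosomes, at a mean of 343 CPM per kb over the 18 libraries. The means of Oas1a, Samhd1 and the tetherin gene Bst2 were 54.9, 47.02 and 42.3 CPM per kb, and their order differed between groups. In untreated CD11c+ macrophages Samhd1 was at 61.1, Bst2 at 37.5 and Oas1a at 33.4 CPM per kb. Isg15 was at 26.7, Gbp2 at 24.2, Irf7 at 22.1 and Gbp3 at 19.7 CPM per kb. The lowest member was Ifi44, at 0.325 CPM per kb, with 0 or 1 count in each LYVE1+CX3CR1+ library and up to 14 counts in the others.

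Without treatment, a part of the interferon-stimulated genes was lower in LYVE1+CX3CR1+ macrophages than in the MHCII+ subsets. Against MHCII+CD11c- macrophages 13 members were lower and 0 higher, when 7.12% of all genes were lower. Against MHCII+CD11c+ macrophages 14 were lower and 0 higher, when 12.4% of all genes were lower. These comparisons share the untreated LYVE1+CX3CR1+ libraries. Against CD11c- macrophages 29 of 46 members had an unadjusted p under 0.05, all below 0, and so did 23.0% of all genes in either direction. Against CD11c+ macrophages 16 of 46 had one, all below 0, and so did 31.1% of all genes in either direction. The highest fitted values were those of Eif2ak2, at 0.38 and 0.45, not called. The median difference of the members was -0.82 and -0.36 on the log2 scale, against -0.02 over all genes in each comparison. In bulk samples, fewer cells of a type and less RNA per cell cannot be told apart.

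Among the signalling and sensing genes, Zbp1, which encodes a sensor of left-handed nucleic acid that can trigger cell death, differed most. Its level was 8.76, 19.4 and 7.0 CPM in untreated LYVE1+CX3CR1+ libraries, 48.8, 33.0 and 68.4 CPM in CD11c- and 48.9, 38.1 and 41.5 CPM in CD11c+ libraries, with no overlap. The difference was -2.10 ± 0.39 (SE, adjusted p = 0.000632) against CD11c- and -1.87 ± 0.38 (adjusted p = 0.000568) against CD11c+ macrophages. Ifih1, the gene of the long double-stranded RNA sensor MDA5, was also lower than in both, by -1.26 and -1.20. Irf7, the amplifier of interferon production, was lower only against CD11c- by the test (-1.03 ± 0.32, adjusted p = 0.0377), and its value against CD11c+ was -0.85 ± 0.31 (adjusted p = 0.053). Without the second untreated LYVE1+CX3CR1+ library the Irf7 difference from CD11c- was called, and without the first or the third of that group, or any of the 3 CD11c- libraries, it was not (adjusted p up to 0.22). Ddx58, the gene of the RNA sensor RIG-I, showed 42.5, 44.5 and 31.8 CPM in LYVE1+CX3CR1+ libraries, within the range of 29.3 to 51.1 CPM of the other 6.

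Among the 2′-5′-oligoadenylate synthetase genes and the synthetase-like Oasl genes, the pattern was uneven. Oasl1 was lower in LYVE1+CX3CR1+ macrophages by -2.001 ± 0.475 (adjusted p = 0.00549) and -2.08 ± 0.45 (adjusted p = 0.00111) against CD11c- and CD11c+ macrophages. Oas3 was lower by -1.57 and -1.28 in the same comparisons. Oas1a and Oasl2 did not pass the test in either, at -0.38 and -0.14 against CD11c- and -0.03 and 0.04 against CD11c+. Mx1, a dynamin-like GTPase gene that carries a defective allele in C57BL/6 mice, was lower than in CD11c+ macrophages (-1.58 ± 0.49, adjusted p = 0.0191) with 5 to 11 counts in each LYVE1+CX3CR1+ library. The transcripts of Oasl1 and Oasl2, like those of the Ifit and Gbp genes, are similar in sequence, Parp9 and Dtx3l overlap on the genome, and how strand and reads that match several genes were treated is not given in the sources used here.

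The restriction factor genes Ifitm3 and Samhd1 were lower than in both MHCII+ subsets. Ifitm3 was at 69.4, 83.4 and 100.1 CPM in untreated LYVE1+CX3CR1+ libraries, and its lowest value in the 6 untreated MHCII+ libraries was 188 CPM. It was lower by -1.32 ± 0.22 (adjusted p = 0.000172) and -1.41 ± 0.22 (adjusted p = 1.81e-05) against CD11c- and CD11c+ macrophages. Samhd1, which encodes an enzyme that depletes deoxynucleotides, was at 252, 277 and 289 CPM against 617, 418 and 507 CPM in CD11c- and 605, 536 and 536 CPM in CD11c+ libraries. Its differences were -0.91 ± 0.17 (adjusted p = 0.000452) and -1.03 ± 0.16 (adjusted p = 3.13e-05). Rsad2, the viperin gene, was at 18.9, 25.1 and 19.9 CPM in LYVE1+CX3CR1+ libraries and overlapped both other subsets, at 0.03 and 0.22.

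Of the ISG15 pathway, in which UBE1L, UBCH8 and HERC6 attach the ubiquitin-like protein ISG15 and USP18 removes it, Isg15 itself was at 1.35, 6.90 and 2.69 CPM in untreated LYVE1+CX3CR1+ libraries (2 to 11 counts). The CD11c- libraries held 17.4, 18.3 and 16.4 CPM and the CD11c+ libraries 12.1, 13.2 and 12.5 CPM, with no overlap. The difference was -2.22 ± 0.48 (adjusted p = 0.00285) and -1.76 ± 0.47 (adjusted p = 0.00698), and the second was at an adjusted p of 0.0504 without the first LYVE1+CX3CR1+ library. Parp14, an ADP-ribosyltransferase gene, was at 106, 128 and 143 CPM, against 187, 207 and 247 CPM in CD11c- macrophages (-0.76 ± 0.20, adjusted p = 0.00972) and 141, 167 and 172 CPM in CD11c+ macrophages (-0.34 ± 0.19, adjusted p = 0.238). Sp100, a nuclear body gene, was lower than in both, by -0.88 and -0.76.

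The next 4 members were called against only 1 of the MHCII+ subsets. Herc6, the ISG15 ligase gene, was lower than in CD11c- macrophages (-1.21, adjusted p = 0.0142), with -0.27 against CD11c+. Stat2, a subunit of the complex that binds ISREs, was lower than in CD11c+ macrophages (-0.82, adjusted p = 0.0176), as were the helicase gene Ddx60 (-1.04, adjusted p = 0.0299) and the ISG15 protease gene Usp18 (-1.34, adjusted p = 0.0161). Their values against CD11c- were of like size at -0.73, -0.94 and -1.25 and did not pass the test (adjusted p of 0.0714, 0.0997 and 0.0594), so the 2 comparisons are not shown to differ. Adar, Rtp4, Xaf1, Ifi35, Slfn8, Tor3a, Parp9, Parp12, Dtx3l and Trim30a were not called in either, with values from -0.88 (Slfn8) to 0.26 (Rtp4).

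Of the guanylate-binding group, 2 of 6 members were lower in LYVE1+CX3CR1+ macrophages in both comparisons. Gbp3 was at 31.0, 35.1 and 46.8 CPM in untreated LYVE1+CX3CR1+ libraries, 82.5, 64.8 and 88.9 CPM in CD11c- and 105, 108 and 119 CPM in CD11c+ libraries. It was lower by -1.06 ± 0.25 (adjusted p = 0.00523) and -1.55 ± 0.24 (adjusted p = 2.33e-05). Gbp7 was lower by -0.82 ± 0.27 (adjusted p = 0.0456) and -0.97 ± 0.26 (adjusted p = 0.00668), the first of which was lost on leaving out any 1 of the 6 libraries (adjusted p up to 0.172). The other 4 members were not called, among them the immunity-related GTPase genes Irgm1 (-0.71 and -0.44) and Igtp (-0.51 and 0.04). The group's median difference was -0.77 and -0.63, and that of the antiviral group -0.84 and -0.33.

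Leaving out the first untreated LYVE1+CX3CR1+ library left 8 members lower in each of the 2 comparisons, all of them among the original calls, and leaving out the third untreated CD11c- library also left 8 in the first. Markers of other cells differed between the same groups. The neutrophil sum was 18.2 to 23.2 CPM in untreated LYVE1+CX3CR1+, 894 to 2077 CPM in CD11c- and 129 to 696 CPM in CD11c+ libraries, with S100a8, Camp, Ngp and Ltf at 0 in all 3 LYVE1+CX3CR1+ libraries. The B cell sum was 0 to 1.61 CPM in LYVE1+CX3CR1+, 202 to 277 CPM in CD11c- and 62.5 to 86.8 CPM in CD11c+ libraries. Their part in the results was not tested.

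No member separated the 2 MHCII+ subsets by the test, which does not show that they are equal. Between untreated CD11c+ and CD11c- macrophages 0 members were called by edgeR, when 3.49% of all genes were called in either direction, and DESeq2 called 0. An unadjusted p under 0.05 was found for 9 of 46 members (1 higher and 8 lower in CD11c+), against 16.1% of all genes. The median difference was -0.29 in the antiviral group and -0.06 in the guanylate-binding group.

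**Figure D2:**
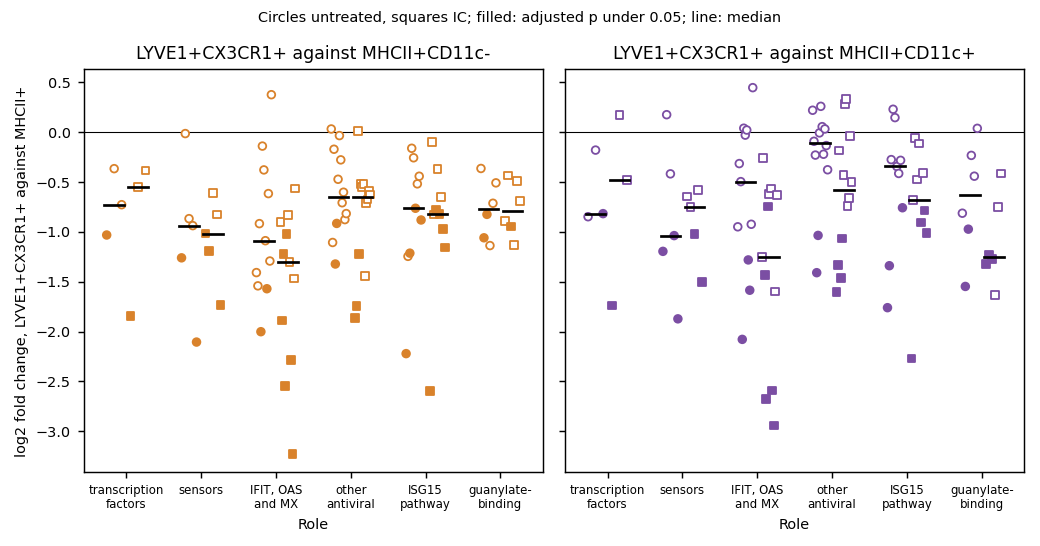
Log2 fold change of each tested member in LYVE1+CX3CR1+ macrophages against MHCII+CD11c- (left) and MHCII+CD11c+ macrophages (right), by role. Circles are untreated and squares IC libraries, filled symbols have an adjusted p under 0.05 and lines are medians. Every filled symbol lies below 0 and the lowest squares are those of Mx1, at -3.23 and -2.94.

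A few antiviral genes were called higher after IC in the MHCII+ subsets. Irf7 and Rsad2 were called in both, each in only some of the fits that left out 1 library. In MHCII+CD11c- macrophages 4 members rose and 0 fell, when 0.55% of all genes rose, and in MHCII+CD11c+ macrophages 4 rose and 0 fell, when 0.483% of all genes rose. All 8 calls were in the antiviral group, which holds 40 of the 46 members tested. In LYVE1+CX3CR1+ macrophages 0 members were called by edgeR, when 0.464% of all genes were called in either direction. There 7 of 46 members had an unadjusted p under 0.05, all above 0, against 8.71% of all genes. In CD11c- macrophages 17 of 46 had one (15 above and 2 below 0), against 14.6% of all genes. In CD11c+ macrophages 23 of 46 had one (22 above and 1 below 0), against 9.48% of all genes. DESeq2 called 1 member in LYVE1+CX3CR1+ macrophages and gave no adjusted p for 6. It called 6 in CD11c- and 10 in CD11c+ macrophages and gave no adjusted p for 1 in each. The median response of the antiviral group was 0.20 in LYVE1+CX3CR1+, 0.41 in CD11c- and 0.64 in CD11c+ macrophages, and that of the guanylate-binding group was -0.29, -0.11 and 0.03. Over all genes the medians were -0.02, -0.01 and -0.01.

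**Figure D3:**
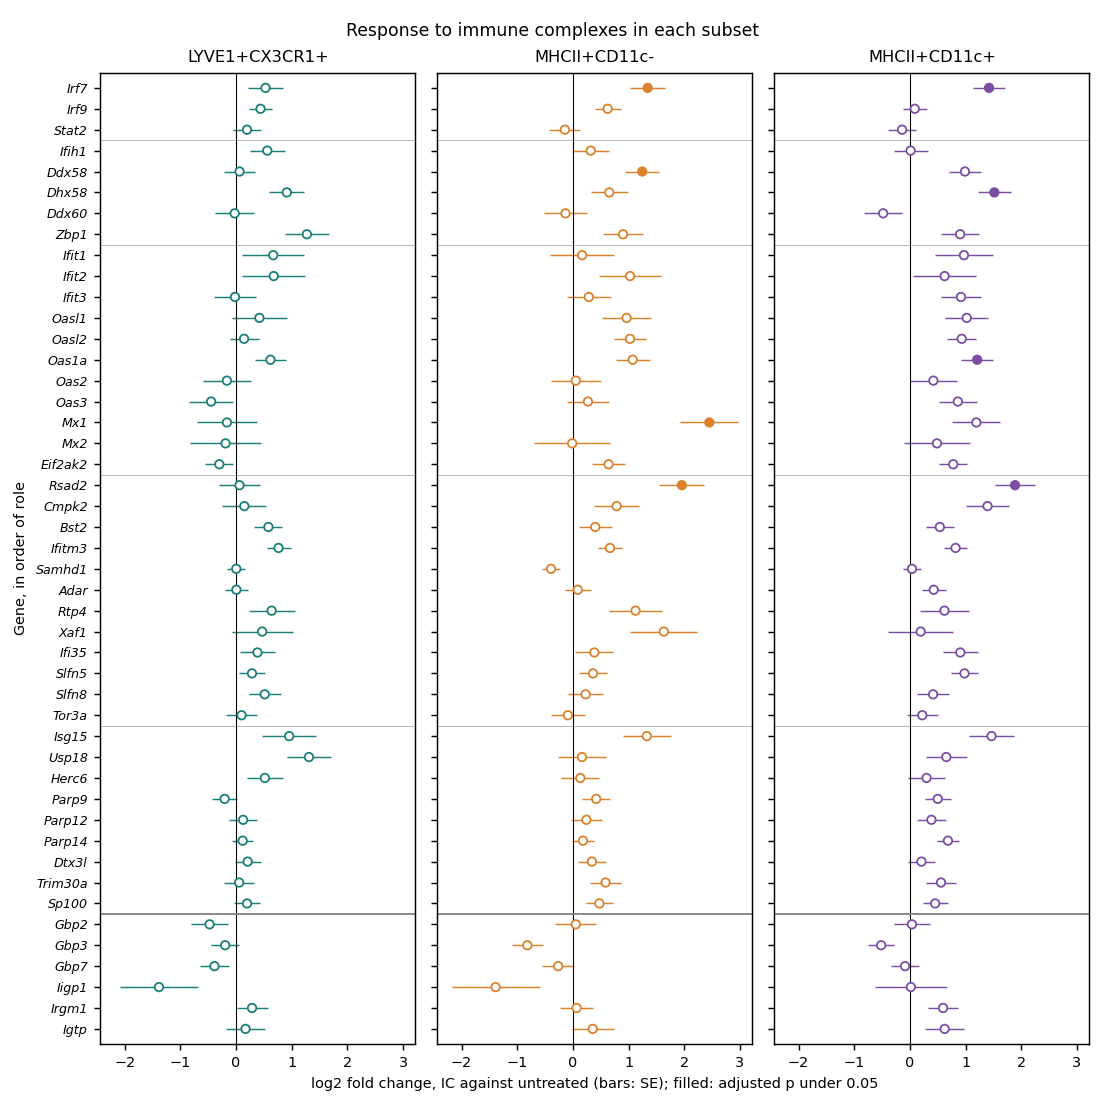
Log2 fold change of the 46 tested members after IC in each subset, with SE bars. Genes run in order of role from top to bottom, with the guanylate-binding genes below the heavy line, and filled points have an adjusted p under 0.05. The filled points are Irf7, Ddx58, Mx1 and Rsad2 in CD11c- and Irf7, Dhx58, Oas1a and Rsad2 in CD11c+ macrophages.

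Irf7 stood at 55.8, 59.9 and 71.5 CPM in untreated CD11c- libraries and at 214, 136 and 130.2 CPM after IC. In CD11c+ macrophages it went from 56.7, 49.3 and 58.8 CPM to 139, 178 and 126 CPM. In LYVE1+CX3CR1+ macrophages the values were 15.5, 50.8 and 25.3 CPM untreated and 32.7, 63.3 and 36.5 CPM after IC, which overlap. Irf7 rose by 1.34 ± 0.32 (adjusted p = 0.0355; 1.07 and adjusted p = 0.236 without both shallow libraries) in CD11c- and by 1.42 ± 0.29 (adjusted p = 0.0171) in CD11c+ macrophages, and its estimate in LYVE1+CX3CR1+ macrophages was 0.53 ± 0.31 (adjusted p = 0.708). Irf9, which encodes the DNA-binding subunit of the complex at ISREs, was not called in any subset. It was at 79.1, 61.1 and 94.0 CPM in untreated and 94.1, 158 and 116 CPM in IC-treated CD11c- libraries (0.62 ± 0.23, adjusted p = 0.189). The LYVE1+CX3CR1+ libraries held 58.0, 55.2 and 68.9 CPM of Irf9 untreated and 78.4, 91.7 and 77.3 CPM after IC (0.44 ± 0.21, adjusted p = 0.57), and the CD11c+ libraries 65.2, 66.4 and 74.8 CPM and 69.4, 89.7 and 60.3 CPM (0.09 ± 0.22, adjusted p = 0.966).

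Rsad2 encodes viperin, which makes a chain-terminating ribonucleotide. It was at 17.4, 26.9 and 18.4 CPM in untreated and 102, 49.0 and 86.1 CPM in IC-treated CD11c- libraries. In CD11c+ macrophages the values were 31.0, 9.20 and 13.99 CPM and 38.6, 95.2 and 65.8 CPM. Both pairs of groups were apart, and Rsad2 rose by 1.96 ± 0.40 (adjusted p = 0.0124) in CD11c- and 1.89 ± 0.36 (adjusted p = 0.0136) in CD11c+ macrophages. LYVE1+CX3CR1+ libraries stayed between 18.9 and 25.1 CPM untreated and between 20.3 and 24.2 CPM after IC (0.06 ± 0.37, adjusted p = 0.994). Cmpk2, its neighbour on chromosome 12 and the gene of the kinase that supplies viperin's substrate, was not called within a subset. Its CPM was 13.9, 23.2 and 36.8 untreated and 41.8, 45.2 and 42.1 after IC in CD11c-, 12.1, 13.2 and 11.6 and then 18.5, 42.5 and 33.5 in CD11c+, and 8.09, 14.4 and 11.8 and then 11.3, 10.02 and 16.8 in LYVE1+CX3CR1+ libraries.

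Of the RIG-I-like receptor genes, Ddx58 was called in CD11c- and Dhx58 in CD11c+ macrophages, with no difference in response between these subsets called by the test, and Ifih1 was called in no subset (0.56, 0.32 and 0.01 in LYVE1+CX3CR1+, CD11c- and CD11c+). Ddx58 was at 38.4, 29.3 and 51.1 CPM in untreated and 112, 41.4 and 116 CPM in IC-treated CD11c- libraries, a rise of 1.24 ± 0.31 (adjusted p = 0.0449) although the groups overlap through the shallowest library. In CD11c+ macrophages it went from 34.1, 30.2 and 40.0 CPM to 52.5, 81.8 and 71.3 CPM (0.99 ± 0.29, adjusted p = 0.133), and in LYVE1+CX3CR1+ macrophages from 42.5, 44.5 and 31.8 CPM to 41.7, 42.7 and 39.4 CPM (0.06 ± 0.28). Dhx58, the gene of the regulator LGP2, was at 29.9, 21.7 and 23.1 CPM in untreated and 72.5, 66.8 and 75.5 CPM in IC-treated CD11c+ libraries, a rise of 1.52 ± 0.30 (adjusted p = 0.014). Its CD11c- values of 36.0, 40.3 and 26.6 CPM and 36.6, 41.4 and 73.1 CPM overlap (0.65 ± 0.33, adjusted p = 0.37). In LYVE1+CX3CR1+ macrophages the Dhx58 values of 9.43, 20.7 and 25.3 CPM and 39.5, 33.2 and 33.1 CPM do not overlap, with a response of 0.91 ± 0.31 that was not called (adjusted p = 0.275). Zbp1 was above its untreated range in every subset without being called in any. Its IC values were 141, 75.3 and 70.1 CPM in CD11c-, 60.2, 103 and 74.9 CPM in CD11c+ and 23.7, 41.1 and 20.2 CPM in LYVE1+CX3CR1+ libraries, with responses of 0.90, 0.90 and 1.27.

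Among the effector genes, Mx1 was at 9.30, 4.89 and 7.15 CPM in untreated and 47.1, 41.4 and 32.0 CPM in IC-treated CD11c- libraries, which is 4 to 8 counts and 11 to 32 counts. It rose by 2.45 ± 0.52 (adjusted p = 0.0164), and the value without both shallow libraries was 2.16 (adjusted p = 0.138). The CD11c+ libraries held 13.1, 17.8 and 11.6 CPM and then 35.5, 34.6 and 27.4 CPM of Mx1 (1.19 ± 0.43, adjusted p = 0.284), and the LYVE1+CX3CR1+ libraries 4.72, 3.13 and 5.92 CPM and then 3.95, 1.05 and 7.20 CPM (-0.16 ± 0.54, adjusted p = 0.981). The highest Mx1 level of a LYVE1+CX3CR1+ library after IC thus lay below the lowest of the MHCII+ libraries after IC. Oas1a rose in CD11c+ macrophages, from 68.3, 49.3 and 71.4 CPM to 133, 191 and 114 CPM (1.21 ± 0.29, adjusted p = 0.0471). In CD11c- macrophages it was at 88.4, 75.8 and 77.6 CPM and then 131, 241 and 150.2 CPM, apart but not called (1.07 ± 0.31, adjusted p = 0.085). The LYVE1+CX3CR1+ values of 36.4, 73.3 and 75.4 CPM and 100.4, 129 and 57.1 CPM overlap. Oasl2 showed 66.3, 64.8 and 94.0 CPM and then 233, 82.8 and 139 CPM in CD11c- (1.02 ± 0.28, adjusted p = 0.0715) and 54.6, 71.7 and 73.3 CPM and then 123, 147 and 110.3 CPM in CD11c+ libraries (0.93 ± 0.26, adjusted p = 0.121), against 51.9, 84.6 and 68.4 CPM and then 91.9, 74.3 and 61.0 CPM in LYVE1+CX3CR1+ libraries.

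**Figure D4:**
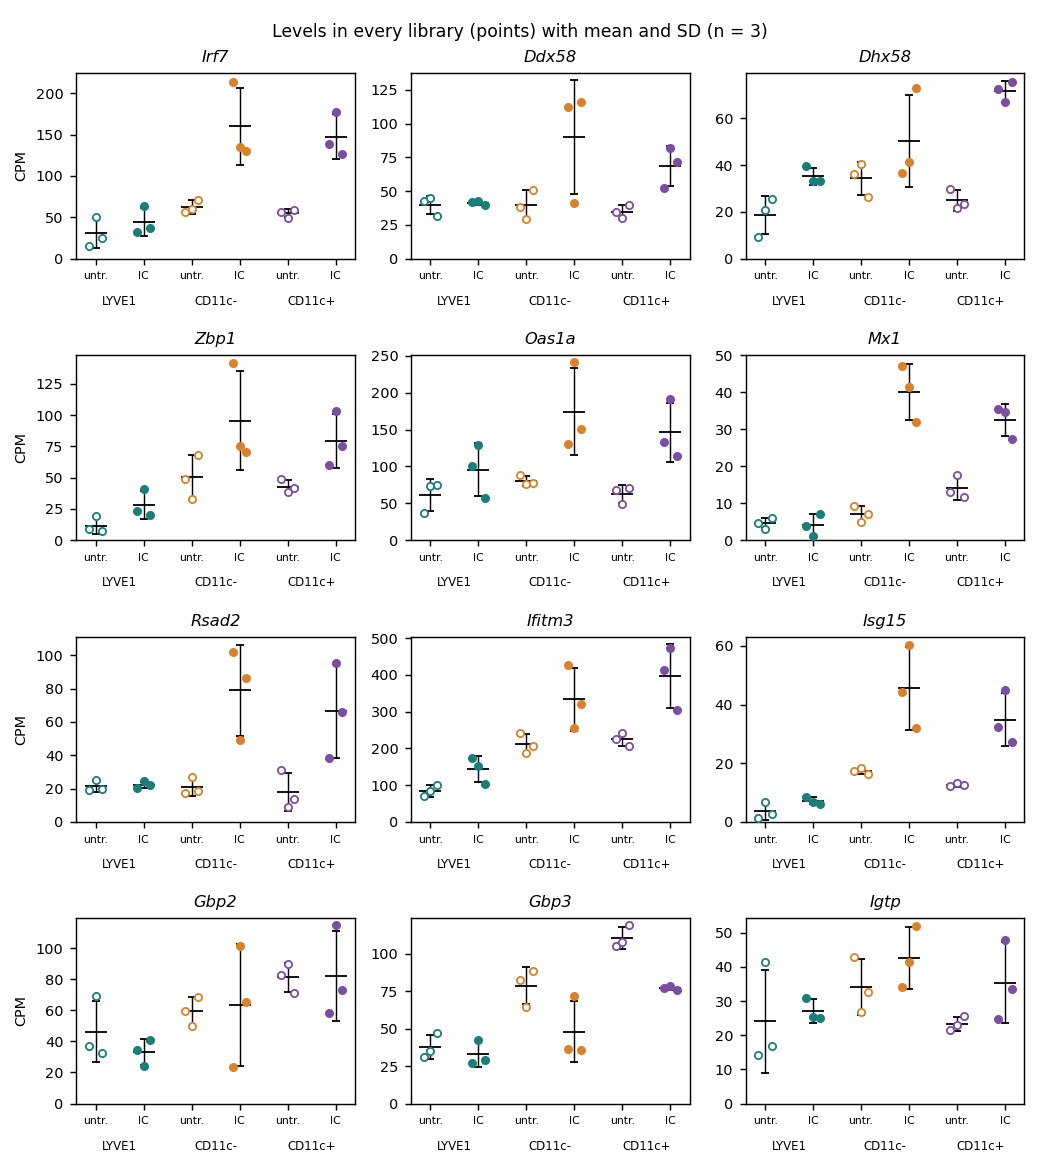
Level (CPM, linear axis from 0) of 12 members in every library, with mean and SD bars (n = 3 libraries). Open points are untreated and filled points IC libraries, and LYVE1, CD11c- and CD11c+ stand for the LYVE1+CX3CR1+, MHCII+CD11c- and MHCII+CD11c+ subsets. For Irf7 and Rsad2 the filled points of both MHCII+ subsets lie above the open ones, and for Gbp3 most filled points lie below them.

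Ifitm3, Bst2 and Isg15 had no call in any subset. Ifitm3 was at 175, 153 and 104 CPM after IC in LYVE1+CX3CR1+, at 426, 256 and 319.5 CPM in CD11c- and at 413, 474 and 304 CPM in CD11c+ libraries, each above all 3 untreated libraries of its subset (0.76, 0.67 and 0.82, adjusted p of 0.153, 0.136 and 0.0654). The untreated values of Ifitm3 were 241, 188 and 205 CPM in CD11c- and 226, 243 and 206 CPM in CD11c+ libraries. Bst2, whose product tethers budding virus, was at 24.9, 28.2 and 32.8 CPM and then 39.5, 53.8 and 36.0 CPM in LYVE1+CX3CR1+ macrophages. Its values were 31.4, 33.0 and 32.7 CPM and then 41.8, 37.6 and 46.1 CPM in CD11c-, and 35.7, 38.8 and 27.0 CPM and then 55.5, 52.7 and 40.2 CPM in CD11c+ libraries. Isg15 after IC was at 44.5, 60.2 and 32.0 CPM in CD11c-, 32.4, 44.8 and 27.4 CPM in CD11c+ and 8.46, 6.85 and 6.24 CPM in LYVE1+CX3CR1+ libraries, with responses of 1.33 ± 0.43, 1.47 ± 0.40 and 0.95 ± 0.49. Slfn5, a schlafen family gene, was at 119, 189 and 191 CPM after IC in CD11c+ libraries, above the untreated 68.8, 85.5 and 101 CPM (0.98 ± 0.24, adjusted p = 0.054). Its CD11c- values were 156, 114 and 128 CPM and then 165, 124 and 206 CPM, and those of LYVE1+CX3CR1+ were 60.0, 77.1 and 123 CPM and then 115, 111 and 93.2 CPM.

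Samhd1 and Parp14 had no call in any subset. Samhd1 was at 444, 328 and 396 CPM after IC in CD11c-, 546, 649.6 and 523 CPM in CD11c+ and 309, 278 and 233 CPM in LYVE1+CX3CR1+ libraries, with responses of -0.39, 0.04 and 0.00. Parp14 was at 306, 166 and 246 CPM, 224, 309.9 and 234 CPM, and 134, 132 and 144 CPM in the same order (0.18, 0.68 and 0.12, none called). The fitted value was above 0 for 32 of 40 antiviral members in LYVE1+CX3CR1+, 35 in CD11c- and 38 in CD11c+ macrophages, against 5021, 5153 and 5184 of 10550 genes.

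These within-subset calls rest on few libraries. In LYVE1+CX3CR1+ macrophages the count was 1 without the third IC library. In CD11c- macrophages the count was 1 without the first or the second untreated library, 0 without the third untreated or the first IC library, and 2 without both shallow IC libraries. In CD11c+ macrophages it was 0 without the second, the third untreated or the third IC library and 1 without the second IC library, and Oas1a was not called on leaving out any 1 of the 6 (adjusted p up to 0.291). Of the 6 fits that left out 1 library, Irf7 was called in 2, Ddx58 in 1, Mx1 in 3 and Rsad2 in 3 in CD11c- macrophages (adjusted p up to 0.141, 0.161, 0.0712 and 0.0661), and Irf7 in 2, Dhx58 in 3 and Rsad2 in 2 in CD11c+ macrophages (adjusted p up to 0.128, 0.102 and 0.108). With only the libraries compared, none of the 4 CD11c- calls held, and the Ddx58 call was also lost with a block for replicate number. All 4 response values of each subset stayed above 0, with the lowest at 0.98 for Ddx58 in CD11c- and 0.94 for Oas1a in CD11c+ macrophages. The neutrophil sum went from 894 to 2077 CPM untreated to 1536 to 4438 CPM after IC in CD11c- and from 129 to 696 CPM to 1089 to 2423 CPM in CD11c+ libraries, and from 18.2 to 23.2 CPM to 19.2 to 176 CPM in LYVE1+CX3CR1+ libraries. Of 7 monocyte markers, 6 were fitted above 0 in each MHCII+ subset, with a median response of 1.73 in CD11c- and 2.08 in CD11c+ macrophages. Plac8 rose in both (2.42 ± 0.57, adjusted p = 0.0355, and 2.48 ± 0.57, adjusted p = 0.0379) and Vcan in CD11c+ (2.07 ± 0.27, adjusted p = 0.00013). Ccr2 was fitted below 0 in both and not called (-0.58 ± 0.25, adjusted p = 0.273, and -0.47 ± 0.24, adjusted p = 0.552). Mean Chil3 went from 52.6 to 208.9 CPM in CD11c- and from 10.4 to 77.4 CPM in CD11c+ libraries. Vcan was not particular to monocytes here, with an untreated mean of 517.1 CPM in LYVE1+CX3CR1+, 81.18 CPM in CD11c- and 11.96 CPM in CD11c+ libraries. The sum of the 7 is mostly F13a1 and was 2723 to 3317 CPM and then 3191 to 3736 CPM in CD11c-, and 2225 to 2856 CPM and then 2381 to 3302 CPM in CD11c+ libraries. The LYVE1+CX3CR1+ sort markers that rose in CD11c+ macrophages are given above. Their part in the results was not tested.

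Averaged over the 3 subsets with equal weight, IC raised 13 members and lowered 1, when 3.12% of all genes rose and 3.09% fell. All 13 that rose were antiviral, as are 40 of the 46 members tested, and the 1 that fell was guanylate-binding. The largest rises were those of Rsad2 (1.30 ± 0.22, adjusted p = 0.000456), Isg15 (1.25 ± 0.25, adjusted p = 0.00345), Mx1 (1.16 ± 0.29, adjusted p = 0.0151) and Irf7 (1.10 ± 0.18, adjusted p = 0.000323). Dhx58 rose by 1.03, Zbp1 by 1.02, Oas1a by 0.97, Cmpk2 by 0.78, Ddx58 by 0.77, Ifitm3 by 0.75, Oasl2 by 0.70, Slfn5 by 0.54 and Bst2 by 0.51. By role, 1 of 3 transcription factor genes, 3 of 5 sensor genes, 3 of 11 IFIT, OAS and MX genes, 5 of 12 other antiviral genes and 1 of 9 genes of the ISG15 pathway rose. The IFIT genes, whose products bind viral RNA at its 5′ end, were not among them (0.60, 0.77 and 0.39 for Ifit1, Ifit2 and Ifit3), and neither were Oas2, Oas3, Mx2 and Eif2ak2, the gene of the RNA-activated kinase PKR. Stat2, Ddx60, Adar, Rtp4, Xaf1, Ifi35, Slfn8, Tor3a, Usp18, Herc6, Parp9, Parp12, Dtx3l and Trim30a were not called in any subset or on average, with average responses from -0.21 (Ddx60) to 0.79 (Rtp4). Usp18 in LYVE1+CX3CR1+ macrophages had a response of 1.31 (adjusted p = 0.208), from 6.74, 8.78 and 8.62 CPM to 20.9, 25.3 and 14.4 CPM without overlap. The count was 12 without the first untreated LYVE1+CX3CR1+ library and 14 without both shallow libraries. The calls of Cmpk2 and Bst2 held in 5 and 3 of the 18 fits that left out 1 library, with an adjusted p of up to 0.106 and 0.136. The Cmpk2 call was also lost without both shallow libraries (adjusted p = 0.0665).

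Of the guanylate-binding group, 0 of 6 members rose and 1 fell on average by edgeR, and the group was not tested against the antiviral one. Gbp3 went from 82.5, 64.8 and 88.9 CPM to 36.6, 71.5 and 36.0 CPM in CD11c- and from 105, 108 and 119 CPM to 77.1, 78.7 and 76.2 CPM in CD11c+ libraries, and was at 31.0, 35.1 and 46.8 CPM and then 27.1, 42.7 and 29.3 CPM in LYVE1+CX3CR1+ libraries. The CD11c+ groups are apart, the other 2 pairs overlap, and no subset gave a call (-0.82, -0.52 and -0.20 in CD11c-, CD11c+ and LYVE1+CX3CR1+). The average of the 3 fell by 0.51 ± 0.15 on the log2 scale (adjusted p = 0.0374), a call that held in 7 of 18 fits that left out 1 library, with an adjusted p of up to 0.0969. Gbp2 was at 59.3, 50.1 and 68.4 CPM untreated and 23.5, 102 and 65.1 CPM after IC in CD11c- libraries, which overlap (0.05 ± 0.37). The average responses of the other members were -0.13 for Gbp2, -0.25 for Gbp7, -0.92 for Iigp1, 0.32 for Irgm1 and 0.38 for Igtp, none called. Gbp3 and Gbp7 lie side by side on chromosome 3 (142560016-142573213 and 142530336-142550151, GRCm38) within a cluster of similar genes.

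**Figure D5:**
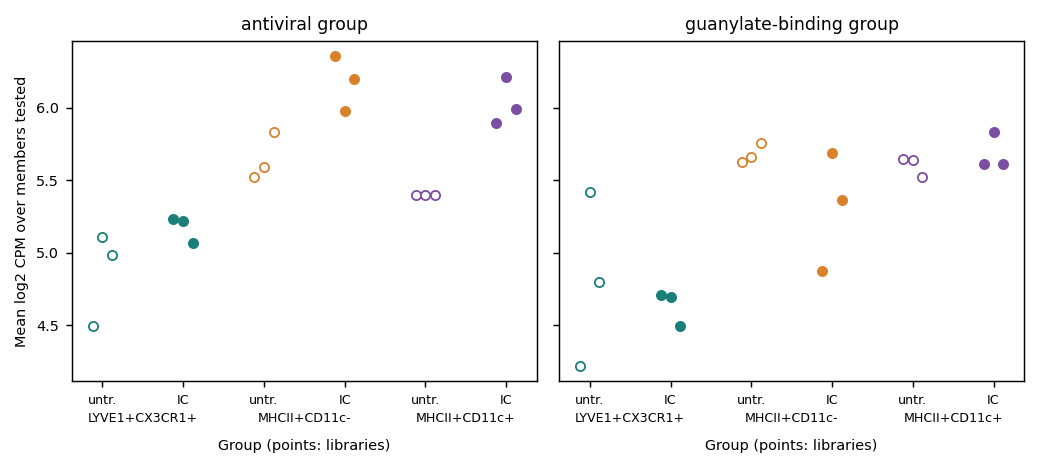
Mean log2 CPM over the 40 antiviral (left) and 6 guanylate-binding members tested (right) in each of the 18 libraries. Open points are untreated and filled points IC libraries. The antiviral mean of every MHCII+ library after IC, 5.89 to 6.35, is above that of every other library, 4.49 to 5.83, and the guanylate-binding means of the MHCII+ subsets overlap between treatments.

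Whether the subsets differ in their response was tested with an interaction term. Between LYVE1+CX3CR1+ and CD11c- macrophages 0 members were called by edgeR (0% of all genes), and DESeq2 called 0 and gave no adjusted p for 24. In this pair 5 of 46 members had an unadjusted p under 0.05, all below 0, against 6.52% of all genes. Between LYVE1+CX3CR1+ and CD11c+ macrophages 0 were called (0.00948% of all genes), and DESeq2 called 0 and gave no adjusted p for 35. In this pair 9 of 46 members had an unadjusted p under 0.05, all below 0, against 4.49% of all genes. Between the MHCII+ subsets 0 were called by edgeR and 0 by DESeq2 (0.00948% of all genes by edgeR), and 0 had an unadjusted p under 0.05, against 6.09% of all genes. The smallest unadjusted p-values belonged to Mx1, at -2.61 ± 0.76 against CD11c- (adjusted p = 0.541), and Rsad2, at -1.89 ± 0.55 against CD11c- (adjusted p = 0.541) and -1.83 ± 0.52 against CD11c+ (adjusted p = 0.824). A weaker response in LYVE1+CX3CR1+ macrophages was therefore not shown by the test of the difference.

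After IC, the subsets were compared again in level. LYVE1+CX3CR1+ macrophages were lower in 19 members and higher in 0 against CD11c-, when 6.45% of all genes were lower, and lower in 19 and higher in 0 against CD11c+ macrophages, when 11.5% were lower. No library is shared with the untreated comparisons, and 10 members were called in both treatments in each pair (76.9% of the untreated and 52.6% of the IC calls against CD11c-, 71.4% and 52.6% against CD11c+). Over all genes lower in LYVE1+CX3CR1+ macrophages, the shares called in both were 57.5% and 63.4% against CD11c- and 67.3% and 72.2% against CD11c+. Zbp1, Oasl1, Oas3, Ifitm3, Isg15, Sp100 and Gbp7 were among the 10 in both pairs. Mx1 had the largest difference, -3.23 ± 0.51 (adjusted p = 8.6e-05) and -2.94 ± 0.48 (adjusted p = 5.8e-05). Isg15 was lower by -2.59 and -2.27, Oasl1 by -2.54 and -2.68, Oas3 by -2.29 and -2.59, Rsad2 by -1.86 and -1.61, Irf7 by -1.84 and -1.74 and Cmpk2 by -1.74 and -1.33.

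Trim30a (-0.97 and -0.78) and Ifit3 (-1.22 and -1.43) were called in both pairs after IC, and their untreated values ran the same way (-0.44 and -0.28, and -0.92 and -0.50). Trim30a was called in 1 of 6 fits that left out 1 library in each pair, and Ifit3 in 1 of 6 against CD11c- and 5 of 6 against CD11c+. Without both shallow libraries the CD11c- calls of Ifih1, Zbp1 (adjusted p = 0.104), Ifit2, Ifit3 (adjusted p = 0.517), Oasl2, Cmpk2 (adjusted p = 0.0505), Parp9 and Trim30a were lost. Of the guanylate-binding group, Gbp7 was lower after IC against CD11c- (-0.95 ± 0.29, adjusted p = 0.0383), and Gbp2, Gbp3 and Gbp7 against CD11c+ macrophages (-1.32, -1.23 and -1.27). The CD11c- count of 19 was 12 without both shallow libraries, with 11 of them among the 19, and 12 without the second IC-treated LYVE1+CX3CR1+ library. Between the MHCII+ subsets after IC 0 members were called by edgeR and 1 by DESeq2, when edgeR called 2.84% of all genes in either direction. An unadjusted p under 0.05 was found for 6 of 46 members (2 higher and 4 lower in CD11c+), against 15.6% of all genes. The edgeR count was 1 without the shallowest CD11c- library.

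The interferons themselves were barely detected. Of 21 interferon genes looked for, none passed the filter. Ifnb1 had 5 counts in all, from 1 untreated CD11c+ library, Ifng 4, Ifna15 and Ifnz 3 each, Ifna4, Ifna11 and Ifna12 1 each, and Ifna1, Ifna2, Ifna5, Ifna6, Ifna7, Ifna9, Ifna13, Ifna14, Ifna16, Ifnab, Ifne, Ifnk, Ifnl2 and Ifnl3 had 0. A count of 0 allows up to 3 counts, which is 1.38 to 12.2 CPM depending on the library. This limit covers counting error only, and the sources used here do not say whether copies of a molecule made by PCR were removed. Production by other cells, or at another time, was not measured.

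The receptor genes were expressed in every subset. Ifnar1 averaged 102 to 168 CPM, Ifnar2 80.8 to 112 CPM, Ifngr1 189 to 243 CPM and Ifngr2 60.5 to 96.0 CPM across the 6 groups. None of the 5 receptor genes tested was called with IC in any subset, and Ifnlr1, of the interferon lambda receptor, had 0 counts. Il10rb, which pairs with it and with the IL-10 receptor, was higher in untreated LYVE1+CX3CR1+ macrophages than in both MHCII+ subsets (0.72 ± 0.19, adjusted p = 0.0139, and 1.06 ± 0.19, adjusted p = 0.000133).

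Other genes of the pathway were read from lists chosen by function. Of 31 further type I targets tested, 1 rose after IC in LYVE1+CX3CR1+, 3 in CD11c- and 1 in CD11c+ macrophages, and 11 on average. Of all genes, 0.55% rose in CD11c-, 0.483% in CD11c+ and 3.12% on average. In LYVE1+CX3CR1+ macrophages 0.464% of all genes were called in either direction. The target that rose in LYVE1+CX3CR1+ macrophages was Ifi27l2a (1.12 ± 0.26, adjusted p = 0.0452, groups overlapping). Those in CD11c- macrophages were Ms4a4c (2.98 ± 0.47, adjusted p = 0.00125), Lgals9 (0.82) and Mnda (0.90). The target in CD11c+ macrophages was Ifi204 (0.83), which encodes a DNA sensor of the same family as Mnda. Ifi27l2a was thus called in the subset where no member was. In CD11c+ macrophages the means of Ms4a4c, Lgals9 and Mnda were 18.6, 94.3 and 113 CPM untreated and 38.25, 129.6 and 195.1 CPM after IC. Mean Ifi204 in CD11c- macrophages was 237 CPM and then 310.5 CPM, so these genes are not shown to be particular to a subset. Of 13 genes that sense nucleic acid or relay the signal upstream of interferon, Ikbke, the kinase that activates IRF3 and IRF7, rose in CD11c- macrophages (2.53 ± 0.55, adjusted p = 0.0194), from 9.11 to 55.5 CPM on average. Mean Ikbke in CD11c+ macrophages also went from 10.4 to 35.3 CPM. Of 8 inhibitors, the IRF2 co-repressor gene Irf2bp2 fell in CD11c- macrophages by 0.77 ± 0.18 on the log2 scale (adjusted p = 0.0271). The CD11c- values rest on the group with the 2 shallow libraries.

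Of 20 further type II targets tested, 0 were called with IC by edgeR in any subset or on average, as in the guanylate-binding group apart from Gbp3, and their median response was -0.14, -0.07 and -0.02 in LYVE1+CX3CR1+, CD11c- and CD11c+ macrophages. In untreated mice 11 of them were lower in LYVE1+CX3CR1+ than in CD11c- and 13 than in CD11c+ macrophages. Of all genes, 7.12% and 12.4% were lower in these comparisons. The list of type II targets holds Ciita and antigen-processing genes close to those of the MHCII gate. Irf1, a target of interferon gamma, fell on average by 0.57 ± 0.11 on the log2 scale (adjusted p = 0.00137), and was chosen after its values were seen.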

How the data were processed

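RNA-seq was performed on 18 libraries of sorted synovial macrophages, 3 for each of 3 subsets in each of 2 treatments. The authors deposited raw read counts per gene symbol for each library. Per the study's methods and processing notes, reads were trimmed with Trim Galore, checked with FastQC, aligned to mm10 with HISAT2 and counted with featureCounts. Versions, annotation, strand setting and the treatment of multiply matching reads are not given in the sources used here. A combined table holds the same counts (0 cells differed) and was not used.

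Counts were tested with edgeR 4.0.16 (R 4.3.3) by the quasi-likelihood test, with TMM factors and filterByExpr (minimum count 10, minimum total 15), in 1 fit of all 18 libraries in 6 groups. The 13 contrasts were drawn from it, and p-values were adjusted by Benjamini-Hochberg over all 10550 genes in each. SE is the log2 fold change over the root of F. The average over subsets weights each subset equally. Coordinates are GRCm38. The code was tested on simulated data.

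Alternatives were DESeq2 1.42.0 as test or for size factors, no filter, only the libraries compared, a replicate block, 1 surrogate variable (sva 3.50.0), leaving out each library, and leaving out both shallow libraries. The study used DESeq2 with sva. Replicate pairs were compared by a chi-square of their counts, which was 3.42 to 7.80 per gene, and none were identical. The labels do not say whether replicate numbers pair the libraries, and no pairing was used in the main test.

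The 47 members and all lists were chosen with earlier results of these data known. Values in every library are given for the 14 members with the smallest adjusted p among those past the threshold with IC, and for the member of each role with the highest mean log2 CPM. Other members are given by counts, ranges and differences. Genes that are no members are named from the pathway lists, the interferons and receptors always and others when past the threshold within a subset.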

Additional observations from a re-analysis of the deposited data

How the results depend on the processing

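No direction reversed under any alternative. The 87 called member comparisons had 1300 values under alternatives, each left-out library counted, of which 1098 kept direction and call and 202 kept direction only. The counts of members called that moved by over 1.5 times were as follows. For IC in LYVE1+CX3CR1+ macrophages (0 called), the count was 1 with DESeq2, 2 with no filter, 1 with only the libraries compared, and 0 to 1 on leaving out 1 library. For IC in MHCII+CD11c- macrophages (4), it was 0 with only the libraries compared, 2 without both shallow libraries, and 0 to 6 on leaving out 1. For IC in MHCII+CD11c+ macrophages (4), it was 10 with DESeq2, 9 with no filter, 9 with 1 surrogate variable, 12 with only the libraries compared, and 0 to 4 on leaving out 1. For LYVE1+CX3CR1+ against CD11c- macrophages it was 8 to 13 untreated (13) on leaving out 1, and after IC (19) 11 with only the libraries compared, 12 without both shallow libraries and 12 to 19 on leaving out 1. Against CD11c+ macrophages it was 8 to 16 untreated (14) on leaving out 1. Between the MHCII+ subsets after IC (0), it was 1 with DESeq2, 2 with no filter, 1 with 1 surrogate variable, and 0 to 1 on leaving out 1. The interaction counts were 0 under every alternative run, and the average over subsets gave 10 to 17 (14) on leaving out 1. The cause of these shifts was not tested.

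Same-numbered libraries of the same treatment deviated together at most weakly, with correlations of -0.0455 to 0.132 (median 0.036) over 18 pairs, against a median of -0.0247 for different numbers. Only 1 was over 0.1, and the labels do not state a pairing, so pairing was not assumed and is not settled. With the replicate block the counts were 0, 3 and 5 for IC in LYVE1+CX3CR1+, CD11c- and CD11c+ macrophages, 13 and 15 for the untreated and 19 and 18 for the IC comparisons of LYVE1+CX3CR1+ with CD11c- and CD11c+, and 14 for the average. With the replicate block within treatment the 4 subset counts were 15, 15, 20 and 20. In the shallowest library 3 counts are 12.2 CPM, so members below that level there could not be told from 0.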
